A study of Homo sapiens with 16 samples.

Results

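Alternative 3' splice sites are acceptor sites that compete for the same 5' splice site (the donor), so that one intron can end at more than one place. The authors' deposited table of local splicing variations was searched for rows marked as alternative 3' splice site and neither as alternative 5' splice site nor as exon skipping, with 2 or 3 junctions and no retained intron. The search found 44 variations in 44 genes, of 6716 variations in 3700 genes. Of the 44, 33 had 2 junctions and 11 had 3, which gave 99 junctions, and in each of the 44 every junction started at 1 shared donor. The choice of members used the type of event and not the size of any change.

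The groups were HL60 cells, a human acute promyelocytic leukaemia cell line, kept for 5 h either in 50 nM SY-351 or in DMSO, the solvent used as control. SY-351 inhibits CDK7, the kinase of the general transcription factor TFIIH. All cells were wild type, and poly(A)-enriched steady-state RNA was sequenced. Each group had 4 numbered replicates with 2 technical repeats each, so that 16 records stood behind 8 columns of gene counts. The labels do not state that replicates were separate cultures, and the spread behind each p-value may be technical. The study looked at what CDK7 does for gene expression, splicing and termination.

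A 3' splice site is read by several factors in turn. SF1 binds the branch point, the U2AF2 and U2AF1 heterodimer binds the pyrimidine-rich tract and the AG at the end of the intron, and the SF3A and SF3B complexes of the U2 snRNP then replace SF1 at the branch point. After the first catalytic step an AG downstream of the branch point is chosen for exon joining, and nearby AGs can compete. Choosing the acceptor farther from the donor (here the farther site) removes the stretch between both sites from the mRNA, and choosing the nearer site keeps it.

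The stretches between competing sites carry the last bases of the intron that ends at the farther site, and they are shown for 7 of the 9 called members in which GENCODE v29 transcripts held them. The stretches of NLRX1 and CKMT1A, which lie wholly or partly in a UTR, are not shown. Table coordinates were not on GRCh38, because 9 of 44 members (20.5%) lay inside their own gene there, so members were placed by gene, strand and exact intron length, and 42 of 44 were found at 1 place, 22 of these by at least 2 introns and 20 by 1 intron. In each line 10 bases of the upstream exon and 15 bases after the farther site are in lower case, and capitals mark the stretch between the losing and the gaining site. In lines with 2 sites it is kept only with the nearer one, and in RGPD2 the last 33 bases in capitals are also kept with the middle of its 3 sites.
RGPD2 (chr2:87798030-87798174, GRCh38, minus strand): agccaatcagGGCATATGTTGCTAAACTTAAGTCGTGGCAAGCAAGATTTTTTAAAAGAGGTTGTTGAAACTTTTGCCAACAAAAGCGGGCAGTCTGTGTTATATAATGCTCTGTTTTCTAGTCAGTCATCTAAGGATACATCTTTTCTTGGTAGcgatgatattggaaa
ACTR5 (chr20:38766238-38766256, GRCh38, plus strand): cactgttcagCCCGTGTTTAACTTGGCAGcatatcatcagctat
KCNH2 (chr7:150947692-150947878, GRCh38, minus strand): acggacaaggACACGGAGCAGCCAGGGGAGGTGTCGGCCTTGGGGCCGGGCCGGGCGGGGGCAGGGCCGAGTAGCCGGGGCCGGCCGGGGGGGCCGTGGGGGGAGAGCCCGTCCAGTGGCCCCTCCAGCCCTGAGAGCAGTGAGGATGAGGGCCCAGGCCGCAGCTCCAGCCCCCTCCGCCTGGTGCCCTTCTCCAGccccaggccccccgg
ZNF609 (chr15:64680646-64680780, GRCh38, plus strand): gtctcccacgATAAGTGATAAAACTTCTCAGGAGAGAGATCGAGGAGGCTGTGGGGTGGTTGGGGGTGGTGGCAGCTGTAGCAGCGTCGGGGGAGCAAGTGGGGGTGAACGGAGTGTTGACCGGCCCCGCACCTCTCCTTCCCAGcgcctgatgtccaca
RTTN (chr18:70168974-70169067, GRCh38, minus strand): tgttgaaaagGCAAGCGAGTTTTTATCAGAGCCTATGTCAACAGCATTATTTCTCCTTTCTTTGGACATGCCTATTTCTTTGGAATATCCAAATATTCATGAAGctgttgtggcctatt
TRIO (chr5:14485069-14485175, GRCh38, plus strand): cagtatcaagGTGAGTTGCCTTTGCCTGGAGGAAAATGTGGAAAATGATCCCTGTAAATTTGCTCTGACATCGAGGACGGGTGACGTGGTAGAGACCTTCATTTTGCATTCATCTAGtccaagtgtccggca
RICTOR (chr5:38945611-38945724, GRCh38, minus strand): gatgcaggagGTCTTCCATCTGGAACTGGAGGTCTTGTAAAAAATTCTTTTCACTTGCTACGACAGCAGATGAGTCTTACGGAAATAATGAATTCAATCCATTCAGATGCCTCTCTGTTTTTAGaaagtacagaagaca

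The next set holds 5 of the 6 shortest distances, a member just under the threshold (COG1) and a member with 3 junctions (DOCK10). Sites 3 nt apart are known as tandem acceptors, and in the first 4 lines the capitals are 1 triplet ending in AG, CAG in each. The stretch of MKLN1, also 3 nt, is TAG and lies in a 3' UTR, and its line is not shown.
CBX7 (chr22:39134046-39134048, GRCh38, minus strand): gaagaggaggCAGatgccgacctggccg
STAG3 (chr7:100211435-100211437, GRCh38, plus strand): ttgcccagggCAGtcagcccgtcgcagg
AC009690.3 (chr15:72288616-72288618, GRCh38, minus strand): cactacgcagCAGcctatccgtcggcct
C11orf68 (chr11:65918216-65918218, GRCh38, minus strand): aaggccggagCAGgatggaaccaggtga
ADAMTS10 (chr19:8597318-8597322, GRCh38, minus strand): catgaacattGTCAGgttgccaaacttttc
COG1 (chr17:73196487-73196506, GRCh38, plus strand): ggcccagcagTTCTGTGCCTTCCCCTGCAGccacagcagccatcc
DOCK10 (chr2:224805515-224805529, GRCh38, minus strand): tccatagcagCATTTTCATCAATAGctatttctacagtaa

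Of the 33 stretches that could be read, 33 ended in AG, against 7.60% of dinucleotide positions in the same 33 transcripts. That held for 13 of 13 stretches next to a de novo site, one not in the annotation that the authors' software used, and for 20 of 20 between annotated sites. Introns end in AG as a rule, so these counts check the placement of the stretches and are no finding about the members. The last 3 bases were CAG in 20, TAG in 11, AAG in 2 and GAG in 0 of the 33, while these triplets made up 2.55%, 0.83%, 2.24% and 1.98% of transcript positions. RTTN and OSBPL3 were the members with AAG. In the 24 stretches long enough, C or T filled a median of 62.5% of the last 20 bases (45 to 80%), against 48.9% over the transcripts. These letters describe the sites and were not tested against the change in use.

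Counts assigned to genes came to 43.3 to 77.9 M in SY-351 libraries and 103.7 to 124.2 M in DMSO libraries, and 3 counts equalled 0.0241 to 0.0693 CPM, which are counts scaled to the library total. DMSO replicates 1 and 2 stood apart, with log CPM correlations of 0.727 to 0.794 with the other 6 libraries and 0.983 with each other. Expression results are therefore given with and without them. MPO, the myeloperoxidase of promyelocytes, had 28260 to 32720 CPM in SY-351 libraries and 12120 to 48110 CPM in DMSO libraries. CTSG, also a promyelocyte marker, had 586 to 669.9 CPM in SY-351 and 19.4 to 280.2 CPM in DMSO libraries. CD33 had 74.9 to 80.3 CPM in SY-351 libraries and 5.64, 3.10, 62.4 and 86.4 CPM in DMSO replicates 1 to 4. MYC had 111.2 to 134.6 CPM in SY-351 and 1100 to 6140 CPM in DMSO libraries. CD4, listed for other cell types, had 521 to 556.7 CPM in SY-351 and 8.24 to 259.3 CPM in DMSO libraries. The other such markers tested had at most 3.40 CPM, but for CD79A (4.53 to 15.9). ELANE, PRTN3 and AZU1 were not among the genes tested. The sources used here do not say which libraries entered the splicing table, whose folder name carries the words no outliers. Whether DMSO replicates 1 and 2 are part of the control shares is therefore not known here. It has no value per sample, so no splicing value below has a replicate error.

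In the authors' deposited table a junction's share is its expected part of all junctions of the variation, from 0 to 1, and a variation was called when the posterior probability of a change of at least 0.20 in some junction was 0.95 or more. Of the 44 variations 12 (27.3%) were called, against 55.7% of the whole table. Alternative 5' splice sites were called in 22 of 41 (53.7%) and cassette exons in 452 of 901 (50.2%). The largest change in a member had a median of 0.270 (0.206 to 0.612), against 0.318 for alternative 5' splice sites, 0.306 for cassette exons and 0.315 for the table. Most rows of the table already had a large change, 6647 of 6716 with one of at least 0.20, so sites that did not move are largely not listed and no rate over all 3' splice sites follows.

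The acceptor with the highest share in control cells lost share with SY-351 in 41 of 44 members (93.2%), against 89.4% of the table. The leading site of each group had a median share over members of 0.673 in SY-351 cells and 0.8825 in control cells. Every member had a largest change of at least 0.206, and a site with a control share of 0.8825 cannot gain that much. For many members the loss at the site that led in control cells thus follows from its control share and the rows listed. That count cannot show a direction of the SY-351 effect. A minimum size of change holds for both groups alike, so it does not by itself make the leading share lower with SY-351. The cause of that lower share was not tested. A different site led in SY-351 than in control cells in 14 members (31.8%), against 34.6% of the table. The share was 36.6% for alternative 5' splice sites and 27.0% for cassette exons. The farther site gained in 26 and the nearer in 18, and among called members in 8 and 4. For comparison, 31 of 41 alternative 5' splice site variations moved to the longer intron.

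**Figure D1:**
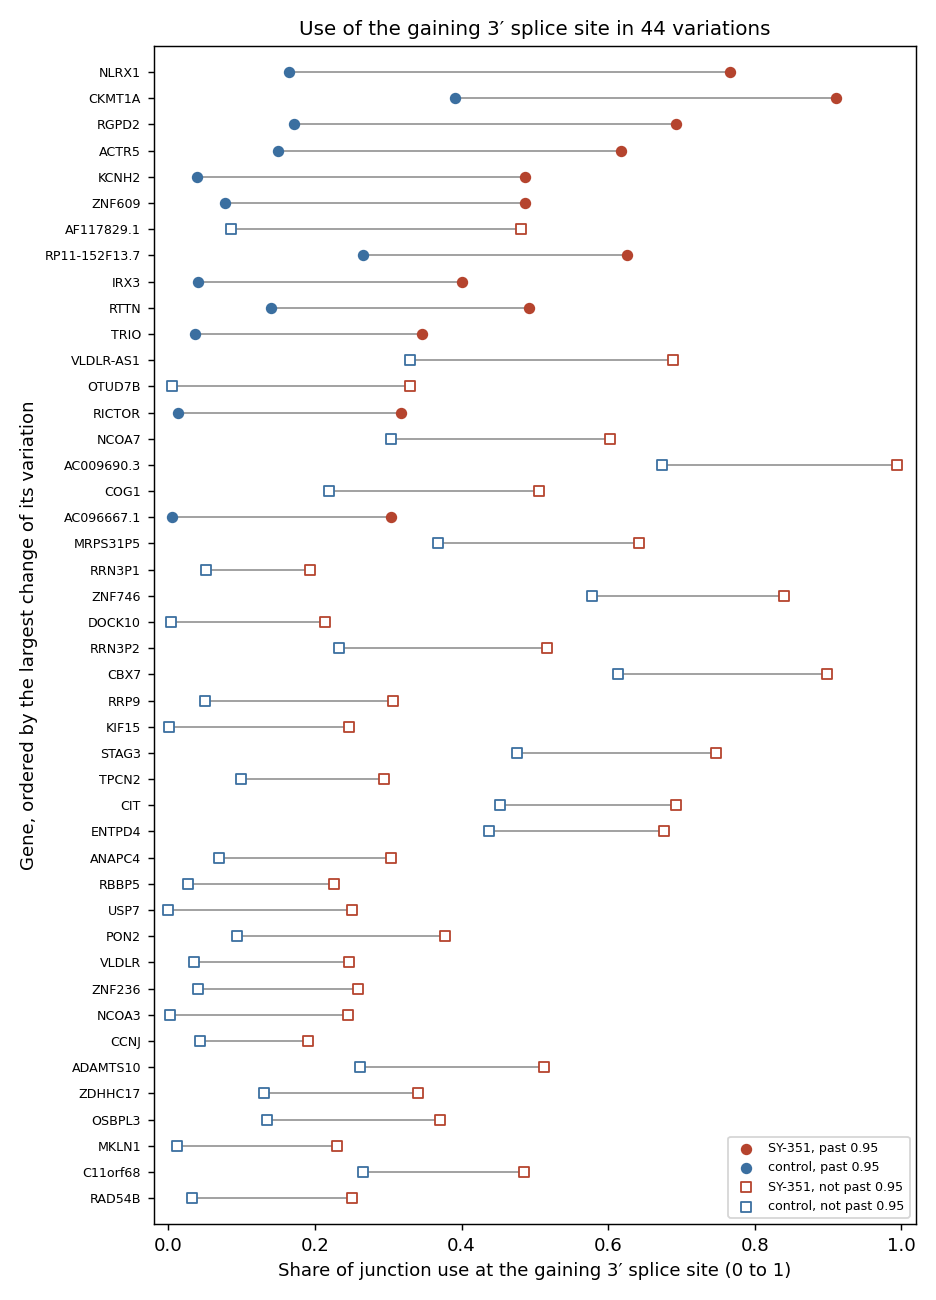
Share of junction use (0 to 1) at the acceptor that gained most, for each of the 44 variations, as given by the authors' deposited table, with SY-351 in red and control in blue. Filled points are the 12 variations past a probability of 0.95, led by NLRX1 at 0.766 in SY-351 cells and 0.164 in control cells; a grey line joins the groups.

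The farther site gained in 8 called members. NLRX1, a NOD-like receptor of mitochondria, used its farther site, 703 nt downstream, at a share of 0.766 in SY-351 cells and 0.164 in control cells in the authors' deposited table. Its stretch spans UTR and coding sequence. RGPD2, of the RANBP2-like family, used the farthest of 3 sites at 0.693 in SY-351 cells and 0.171 in control cells. That site lay 145 nt beyond the nearest one and was de novo, and reads from near-identical copies of the family cannot be told apart with certainty.

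In the authors' deposited table ACTR5, a subunit of the INO80 chromatin remodeller, had the shortest distance of any called member, 19 nt, and its farther site had a share of 0.617 in SY-351 cells and 0.150 in control cells. KCNH2, the hERG potassium channel, used a de novo site 187 nt inside the annotated exon at 0.486 in SY-351 cells and 0.039 in control cells. ZNF609, a zinc finger protein, had 0.486 in SY-351 cells and 0.077 in control cells at a de novo site 135 nt farther. These 3 sites were minor in control cells and took about as much of the junction use as their rivals, or more, with SY-351.

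By the authors' deposited table RTTN, a centriole protein, moved to an annotated site 94 nt farther, with a share of 0.492 in SY-351 cells and 0.140 in control cells. TRIO, a guanine nucleotide exchange factor, moved to a de novo site 107 nt farther, with 0.346 in SY-351 cells and 0.036 in control cells. RICTOR, the scaffold of mTOR complex 2, moved to an annotated site 114 nt farther, with 0.317 in SY-351 cells and 0.013 in control cells. In these 3 the nearer site kept the larger share in both groups.

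The nearer site gained in 4 called members of the authors' deposited table. CKMT1A, a mitochondrial creatine kinase, used its nearest site at 0.911 in SY-351 cells and 0.391 in control cells, and the next site, 63 nt on, at 0.011 in SY-351 cells and 0.554 in control cells. The gene had 0.158 to 0.335 CPM in SY-351 libraries and 0 to 0.181 CPM in DMSO libraries, so few reads stand behind it, and CKMT1B is a near-identical copy. RP11-152F13.7, which had no match in GENCODE v29, had its nearest site at 0.626 in SY-351 cells and 0.265 in control cells. IRX3, an Iroquois homeobox factor, used a de novo site 196 nt nearer at 0.400 in SY-351 cells and 0.040 in control cells. AC096667.1 used a de novo site 24 nt nearer at 0.304 in SY-351 cells and 0.005 in control cells.

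The authors' deposited table gives similar values to members on both sides of the threshold. RICTOR (0.971) and RP11-152F13.7 (0.970) lay just inside the probability of 0.95. COG1, of the Golgi tethering complex, lay just outside at 0.926, with a nearer-site share of 0.505 in SY-351 cells and 0.219 in control cells. KIF15, a mitotic kinesin, lay just outside at 0.913, with 0.247 in SY-351 cells and 0.001 in control cells at the de novo middle site. These values describe the threshold.

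The other members that were not called had smaller or less certain changes in the authors' deposited table. AF117829.1, a lincRNA, had the largest change among them, with its farther de novo site at 0.481 in SY-351 cells and 0.086 in control cells. VLDLR-AS1, an antisense RNA, had its nearer de novo site at 0.688 in SY-351 cells and 0.329 in control cells. OTUD7B, a deubiquitinase, had its farther site at 0.330 in SY-351 cells and 0.005 in control cells. The 3 had probabilities of 0.903, 0.790 and 0.910.

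Other members moved to a farther site that was a minor one in control cells. RAD54B, a DNA repair helicase-like protein, had 0.250 in SY-351 cells and 0.032 in control cells. Its gene level was low, at 1.31 to 2.14 CPM in SY-351 libraries and 0.169 to 3.03 CPM in DMSO libraries. VLDLR, a lipoprotein receptor, had 0.246 in SY-351 cells and 0.035 in control cells. ZNF236 had 0.258 in SY-351 cells and 0.040 in control cells. ANAPC4, PON2, ZDHHC17 and OSBPL3 also moved this way, and their gaining site lay between 0.303 and 0.378 in SY-351 cells and between 0.069 and 0.135 in control cells. PON2 too had a low level, 1.16 to 1.43 CPM in SY-351 libraries and 0.886 to 1.22 CPM in DMSO libraries.

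In NCOA7, ZNF746, ENTPD4, MRPS31P5 and RRN3P2 the gaining site had a share of at least 0.233 in control cells. NCOA7 had its farther site at 0.602 in SY-351 cells and 0.303 in control cells. Its gene had 0.0564, 0, 7.87 and 10.9 CPM in DMSO replicates 1 to 4. ZNF746 had its nearer site at 0.840 in SY-351 cells and 0.578 in control cells, and ENTPD4 its nearer site at 0.676 in SY-351 cells and 0.438 in control cells. MRPS31P5 and RRN3P2 moved to the farther site, with 0.642 and 0.517 in SY-351 cells and 0.368 and 0.233 in control cells. Both resemble other gene copies, as does RRN3P1, so reads of these may be mixed. In 3 more members the gaining site was a minor one in control cells. RRP9, a protein of the U3 snoRNP, moved to a de novo site 16 nt nearer, with 0.307 in SY-351 cells and 0.050 in control cells. RRN3P1 and TPCN2, a lysosomal channel, moved to a nearer de novo site, with 0.193 and 0.294 in SY-351 cells and 0.051 and 0.099 in control cells.

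Competing sites were a median of 57.5 nt apart (3 to 703). At 51 to 200 nt 8 of 15 members (53.3%) were called, against 55.7% of the whole table, and 12 of the 15 moved to the farther site. At 13 to 50 nt 2 of 15 (13.3%) were called and 11 moved to the farther site. Above 200 nt 2 of 8 (25%) were called and 1, NLRX1, moved to the farther site. The distance was a multiple of 3 in 18 of 44 members (40.9%), against 43.9% of alternative 5' splice site variations.

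**Figure D2:**
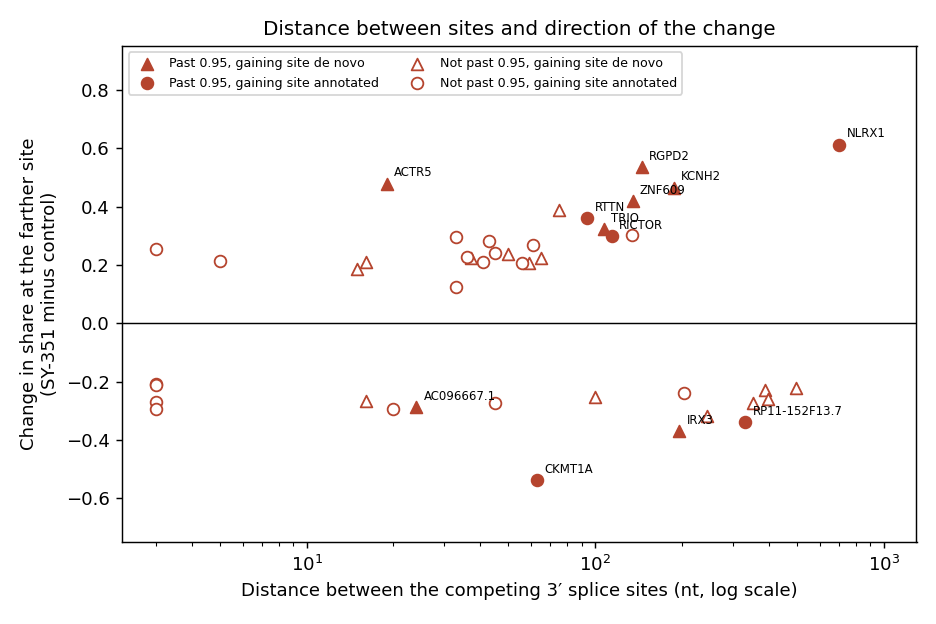
Change in share at the farther of both competing acceptors (SY-351 minus control, vertical) against their distance in nt (log scale, horizontal), for the 44 variations of the authors' deposited table; filled marks are past 0.95 and triangles have a de novo gaining site. Above 200 nt 7 of 8 points lie below 0, and at 51 to 200 nt 12 of 15 lie above it.

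The gaining and the losing site were tandem acceptors 3 nt apart in 5 members. Of these 0 was called, against 55.7% of the whole table. In the authors' deposited table the farther site gained in STAG3, a cohesin subunit of meiosis, with 0.747 in SY-351 cells and 0.475 in control cells. The nearer site gained in CBX7, a Polycomb protein, with 0.899 in SY-351 cells and 0.613 in control cells, and in AC009690.3, C11orf68 and MKLN1. C11orf68 had 0.485 in SY-351 cells and 0.265 in control cells. For AC009690.3 the nearer site had 0.994 in SY-351 cells and 0.674 in control cells. MKLN1, of the CTLH ubiquitin ligase, had 0.230 in SY-351 cells and 0.012 in control cells. ADAMTS10, a secreted metalloprotease, was the member with sites 5 nt apart, and its farther site had 0.513 in SY-351 cells and 0.261 in control cells. STAG3 and AC009690.3 have related sequences elsewhere in the genome, so their values are uncertain.

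In the authors' deposited table de novo junctions were part of 26 members (59.1%), against 84.8% of the table. The table includes variations with many junctions, and the share was 68.3% for alternative 5' splice sites and 56.6% for cassette exons. The site that gained most was de novo in 21 members and the site that lost most in 1. Of the 31 de novo junctions 26 had a higher share with SY-351 and 5 a lower one, with medians of 0.247 in SY-351 cells and 0.039 in control cells. Of the 68 annotated junctions 25 were higher and 43 lower, with medians of 0.518 in SY-351 cells and 0.6855 in control cells. The table as a whole leans the same way, with a de novo gaining site in 3166 and a de novo losing site in 484 variations. Every member had a largest change of at least 0.206. A junction with a control share of 0.039 can change that much only by gaining, and its rivals then lose. With control shares that low, de novo sites could enter the listed rows mainly by gaining. Why their shares were lower in control than in SY-351 cells was not tested.

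The 21 de novo gaining sites of the authors' deposited table had a median share of 0.304 in SY-351 cells (0.193 to 0.693) and 0.04 in control cells (0 to 0.329), and 12 were the farther and 9 the nearer site. USP7, a deubiquitinase, had a site of this kind 387 nt nearer at 0.250 in SY-351 cells and listed at 0 in control cells. NCOA3, a nuclear receptor coactivator, had one 495 nt nearer at 0.245 in SY-351 cells and 0.002 in control cells. Neither was called. Members with annotated junctions alone were 18, of which 13 moved to the farther site and 3 were called (16.7%), while of the 26 with a de novo junction 13 did and 9 were called (34.6%).

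The 11 variations with 3 junctions in the authors' deposited table show which rival the share came from. In DOCK10, a guanine nucleotide exchange factor, the de novo middle site had 0.214 in SY-351 cells and 0.003 in control cells, and the nearest site 0.657 in SY-351 cells and 0.926 in control cells. In RBBP5, a subunit of the SET1 and MLL methyltransferases, the farthest de novo site had 0.226 in SY-351 cells and 0.027 in control cells, while the middle de novo site, 4 nt before it, had 0.025 in SY-351 cells and 0.003 in control cells. In CIT, the citron kinase, the middle site had 0.693 in SY-351 cells and 0.453 in control cells, and its de novo farthest site stayed at or below 0.024 in both groups. In CCNJ, a cyclin, both farther sites, 3 nt apart, were higher with SY-351, at 0.190 and 0.225 in SY-351 cells and 0.043 and 0.144 in control cells. DOCK10, RBBP5, CIT and CCNJ were not called.

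**Figure D3:**
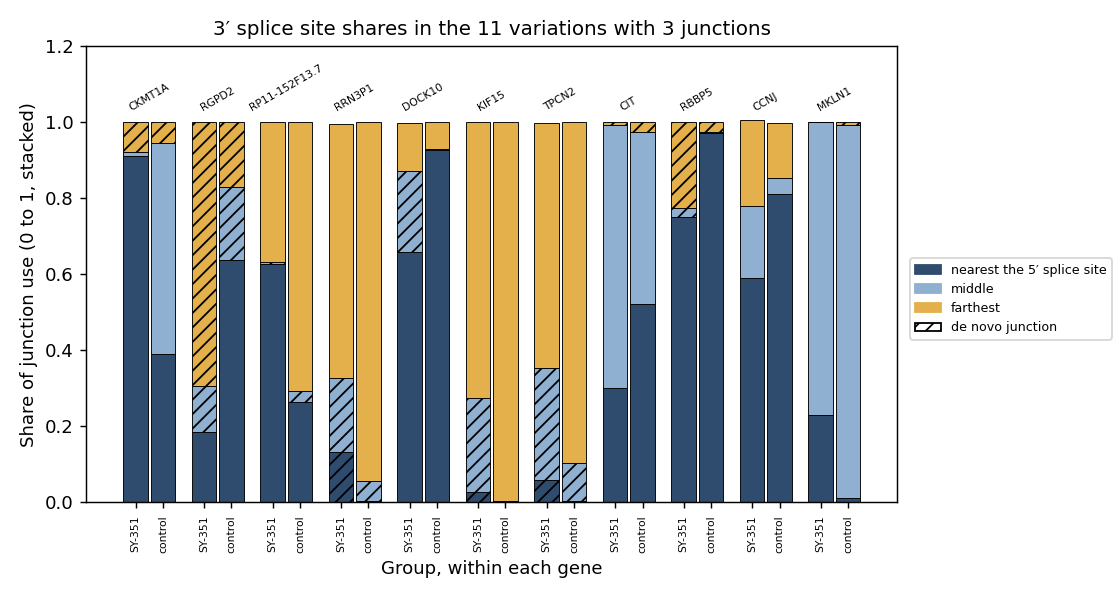
Stacked shares of the 3 acceptors in each of the 11 variations with 3 junctions, SY-351 left and control right within each gene, from the authors' deposited table; hatching marks de novo junctions. RGPD2 has its farthest site at 0.693 in SY-351 cells and 0.171 in control cells, and the farthest site of CIT and of MKLN1 is barely visible in either group.

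The stretch between the sites lay in coding sequence in 26 members, in a 5' UTR in CKMT1A, in a 3' UTR in MKLN1, across UTR and coding sequence in NLRX1 and in non-coding transcripts in 4. In 9 the stretch was in no GENCODE transcript and 2 were not matched. Of 25 coding stretches with a complete reading frame, removal kept the frame and the stop codon in 12 and shifted the frame in 13. In these 13 the new stop fell more than 50 nt before the last exon junction, a position at which nonsense-mediated decay is known to act. Of the 21 such members that moved to the farther site 13 shifted the frame and 8 kept it. Called members that shifted it were RGPD2, ACTR5, KCNH2, RTTN and TRIO, and those that kept it were ZNF609 and RICTOR. Decay itself was not measured.

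Of the 44 genes 37 were protein coding, 2 antisense RNAs, 2 transcribed pseudogenes, 1 a lincRNA and 1 a processed transcript, and 1 was not in GENCODE v29. Another variation of the table lay in 16 of the 44 genes, 30 in all, and in 0 of these did it overlap the member's intron. Of the 3700 genes of the table, 50.5% had at least 2 variations. ANAPC4, a subunit of the anaphase-promoting complex, was the member with a retained-intron variation elsewhere in the gene. None of the 44 genes was in any of the 10 gene lists used. These were drawn from splicing factors, SR proteins, hnRNPs, 3' end processing, transcription machinery, CDK7 and TFIIH, RNA decay, ribosomal proteins, the cell cycle and myeloid genes. The lists are short, with 10 to 43 genes each, and do not cover their fields. KIF15, CCNJ and ANAPC4, for example, are not on the cell cycle list.

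Gene levels could be set beside splicing for 35 of the 44 genes. With edgeR's quasi-likelihood test over all 8 libraries (Benjamini-Hochberg adjusted p below 0.05), 1 of the 35 was higher with SY-351, against 2.91% of the 15472 genes tested, and 10 were lower, against 13.6%. Leaving out SY-351 replicate 1 or 3 left 0 of the 35 called, with 12 at unadjusted p below 0.05 each time, and leaving out SY-351 replicate 2 or 4 left 3. Without DMSO replicates 1 and 2, 8 were higher, against 21.9% of 15811 genes, and 13 were lower, against 26.4%. The counts cover whole gene intervals with introns, so they do not measure spliced mRNA alone, and fewer cells and less RNA per cell cannot be told apart.

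RGPD2 had 11.2, 10.03, 11.3 and 11.5 CPM in SY-351 replicates 1 to 4, against 4.25, 4.47, 3.52 and 4.804 CPM in DMSO replicates 1 to 4. The groups did not overlap, and the log2 fold was 1.37 (SE 0.26, edgeR adjusted p = 0.0128, and 0.00919 to 0.0633 with 1 library left out). NLRX1 had 9.01, 7.64, 6.01 and 8.59 CPM in SY-351 libraries, against 50.1, 41.4, 12.4 and 15.8 CPM in DMSO libraries. All 4 SY-351 libraries were lower, with log2 fold -1.94 (SE 0.50, adjusted p = 0.0338 by edgeR). Without DMSO replicates 1 and 2 the NLRX1 fold was -0.83 (edgeR adjusted p = 7.70e-06), and with 1 library left out its adjusted p was 0.0117 to 0.118.

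IRX3 had 1.603, 2.58, 2.12 and 2.32 CPM in SY-351 libraries, against 164.5, 195.4, 13.9 and 18.5 CPM in DMSO libraries. Its log2 fold was -5.51 (SE 0.99, edgeR adjusted p = 0.0104, and 0.00456 to 0.0536 with 1 library left out), and -2.89 (edgeR adjusted p = 1.14e-49) without DMSO replicates 1 and 2. The share of its de novo site in SY-351 cells thus rests on a low level. The other genes called lower were OTUD7B, COG1, ZNF746, RRP9, USP7, VLDLR, CCNJ and C11orf68, with log2 folds of -3.67 for ZNF746 to -0.84 for CCNJ. Without DMSO replicates 1 and 2 edgeR also called these 8 lower, with log2 folds of -2.03 for ZNF746 to -0.82 for CCNJ and -1.75 for C11orf68, which had -3.16 over all libraries. In these 8 the groups did not overlap, and CCNJ lay at the threshold (edgeR adjusted p = 0.04995).

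The remaining called members' genes did not pass in the fit over all libraries. KCNH2 had 15.4 to 16.9 CPM in SY-351 libraries and 16.5 to 103.3 CPM in DMSO libraries, and the high values were DMSO replicates 1 and 2. RICTOR had 36.1 to 44.6 CPM in SY-351 libraries and 0.749 to 35.5 CPM in DMSO libraries, with both low values in the same 2 libraries. RTTN had 22.1 to 24.4 CPM in SY-351 libraries, against 1.76 and 1.23 CPM in DMSO replicates 1 and 2 and 34.3 and 42.7 CPM in DMSO replicates 3 and 4. Without DMSO replicates 1 and 2 RTTN was lower, with log2 fold -0.70 (edgeR adjusted p = 1.81e-05), and RICTOR was higher, with 0.43 (edgeR adjusted p = 0.0176). ACTR5 had 13.6 to 17.8 CPM in SY-351 libraries and 12.4 to 16.9 CPM in DMSO libraries, and the groups overlapped.

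**Figure D4:**
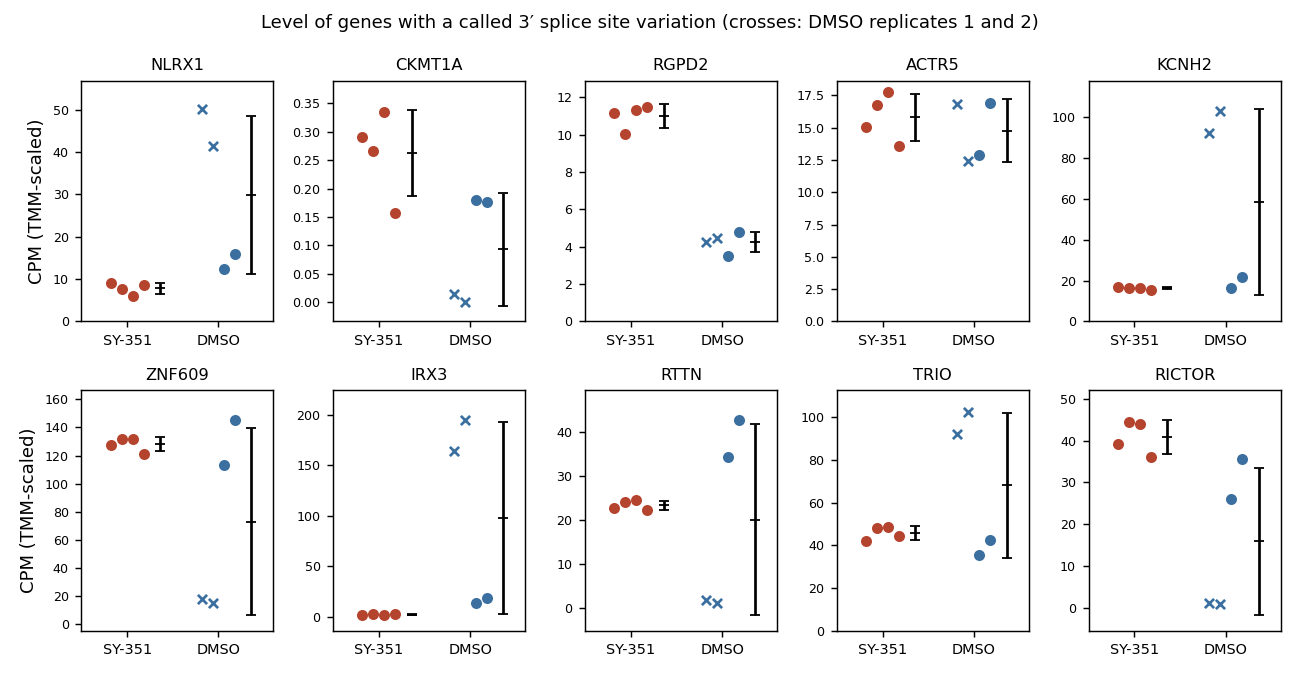
Gene level (CPM, TMM-scaled) in each of the 4 SY-351 libraries (left) and 4 DMSO libraries (right) for the 10 genes with a called variation and a count row; black bars are mean ± SD and crosses are DMSO replicates 1 and 2. RGPD2 is higher and IRX3 and NLRX1 lower in all SY-351 libraries, and ACTR5 overlaps.

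How many factors that read 3' splice sites were called depended on the DMSO libraries used. Of 34 in the list 31 were tested, and with all libraries edgeR called 0 higher, against 2.91% of all genes, and 3 lower, against 13.6%, with 9 of the 31 at unadjusted p below 0.05. SF3B4, of the SF3B complex, had 31.7 to 32.9 CPM in SY-351 libraries and 86.2 to 257.6 CPM in DMSO libraries (log2 fold -2.22, SE 0.38, edgeR adjusted p = 0.00868). RBM10, an RNA-binding splicing regulator, had 60.1 to 66.1 CPM in SY-351 libraries and 112.7 to 507.2 CPM in DMSO libraries (log2 fold -2.20, SE 0.52, edgeR adjusted p = 0.0264). SF3A2, of the SF3A complex, had 105.4 to 111.1 CPM in SY-351 libraries and 177.3 to 2189 CPM in DMSO libraries (log2 fold -3.40, SE 0.89, edgeR adjusted p = 0.0355). In all 3 the groups did not overlap. Without SY-351 replicate 1 or 3 edgeR called 0 factors, with 6 at unadjusted p below 0.05, without SY-351 replicate 2 or 4 or DMSO replicate 1 or 2 it called 1, without DMSO replicate 4 it called 5, and without DMSO replicate 3 it called 9.

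SF1 had 309.4 to 327.0 CPM in SY-351 libraries and 397.5 to 2191 CPM in DMSO libraries (edgeR adjusted p = 0.0612), and SUGP1 had an adjusted p of 0.0513 by edgeR. SF3B1, the branch point subunit, had 301.6 to 333.7 CPM in SY-351 libraries, against 2.88 and 2.16 CPM in DMSO replicates 1 and 2 and 291.9 and 380.8 CPM in DMSO replicates 3 and 4, so its group mean rests on which DMSO libraries are used. U2AF2 and ZRSR2 did not pass (edgeR adjusted p = 0.359 and 0.402). U2AF1, PUF60 and DDX39B had no row tested. Without DMSO replicates 1 and 2, 5 of the 31 (16.1%) were higher, against 21.9% of all genes, and 14 (45.2%) were lower, against 26.4%. In that fit the log2 folds were -1.62 for SF3B4, -0.98 for RBM10 and -0.87 for SF3A2, and U2AF2 was higher by 0.42 (edgeR adjusted p = 0.0232). Whether these levels bear on splice site choice was not tested.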

How the data were processed

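Poly(A)-enriched RNA was TRIzol-extracted and sequenced from TruSeq libraries, per the labels' protocols. Read counts per gene interval are deposited as whole numbers, from featureCounts 1.6.2 at strand setting 1, per the file headers. Whether the kit kept strand is not stated. GRCh38 and DESeq2 are named in the submitters' processing notes. The other deposited table is the authors' own comparison, with shares, differences and posterior probabilities under the column names of MAJIQ and Voila, per the file headers (versions: not given in the sources consulted). Its difference is control minus SY-351 (the sign matched the shares in 100% of 17265 junctions) and its sign was reversed here. Columns not used numbered 0.

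Members were placed in GENCODE 29 by gene identifier, strand and intron lengths, with no coordinate converted. Sequences are from its transcripts. The test on counts was edgeR 4.0.16 under R 4.3.3 (TMM, filterByExpr, robust quasi-likelihood fit, two-sided); SE is the log2 fold over the square root of F, and CPM are TMM-scaled. DESeq2 1.42.0 was an alternative. Count rows were named through RefSeq (17871) and GENCODE (130), 92 stayed unnamed, and where rows shared a symbol 13 were set aside. Both steps were tested on simulated data. The simulated counts followed the SY-351 libraries and DMSO replicates 3 and 4, so the spread that DMSO replicates 1 and 2 add was not part of that test. Python 3.11.15, pandas 2.3.3 and matplotlib 3.10.9 were used.

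The members, gene lists, tests and alternatives were chosen with earlier results of these data known. The rule named the 12 called members with the largest change, the 2 largest per distance class, the 3 largest with a de novo junction, 3 with 3 junctions, 2 on each side of the threshold, the 5 factors with the smallest adjusted p, and U2AF1, U2AF2, SF3B1, SF1 and ZRSR2. Other members named in the text were chosen after their values were seen.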

Additional observations from a re-analysis of the deposited data

How the results depend on the processing

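Of the 12 called variations, 7 passed a probability of 0.99 and 3 had annotated junctions alone; the other alternatives kept the count within 1.5 times. Shifts to the farther site numbered 26 over all members and 13 over annotated ones; among called members they numbered 8, and 5 at 0.99 or 3 with annotated junctions. Distances divisible by 3 numbered 18, and 8 with annotated junctions. These smaller sets hold fewer members by construction.

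Over all genes edgeR called 2550 of 15472, DESeq2 called 5183 of 15472 and edgeR without DMSO replicates 1 and 2 called 7638 of 15811; for genes that hold members the 11 calls became 21 without those 2 libraries, and for 3' splice site factors the 3 calls became 19, and 8 with DESeq2. Leaving out one library gave 539 to 5323 calls over all genes, 0 to 13 for genes that hold members (0 without SY-351 replicate 1 or 3) and 0 to 9 for factors. The cause was not tested. Samples with the same replicate number had correlations of deviations from their group means of -0.015, -0.041, 0.006 and -0.176. The split of DMSO replicates 1 and 2 from the others weighs on these values, so they cannot exclude a pairing by number. With a replicate block edgeR called 0 of 15472 genes, 0 genes that hold members and 0 factors (3649 genes at unadjusted p below 0.05).

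Log2 folds changed sign for RTTN (-0.70 without DMSO replicates 1 and 2, -0.17 without DMSO replicate 1, and from -0.18 to 0.92 over all fits with 1 library left out), TRIO (0.25), U2AF2 (0.42) and SF3B1 (-0.036) without DMSO replicates 1 and 2, and for ACTR5 with DESeq2 size factors (-0.044) and DESeq2 (-0.043). Over the other alternatives for named genes 182 values kept direction and side of the threshold, 32 lost and 12 gained significance. With DESeq2 size factors the median gene had a log2 fold of -0.11. Splicing values have no replicate error, and their read depth is unknown.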
